A study of Mus musculus with 4 samples.

Results

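Phosphatases that act on tyrosine, or on tyrosine together with threonine, were followed in follicular helper CD4+ T (TFH) cells with and without Rictor. The group was every gene whose platform symbol begins with Ptpn, Ptpr or Dusp, and it held 59 genes with 129 probe sets, on a mouse Affymetrix table of 45037 probe sets that name 18193 genes. A gene was represented by the brightest of the probe sets named for it alone. By role the 59 genes fell into 16 non-receptor tyrosine phosphatases, 18 receptor-type tyrosine phosphatases, 10 MAP kinase phosphatases, 14 atypical dual-specificity phosphatases, and Ptprcap, whose product binds the phosphatase CD45 and is no enzyme itself. The RefSeq list of the mouse holds a further 4 genes of these names, which were not analysed here.

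The study infected mice with the Armstrong strain of lymphocytic choriomeningitis virus (LCMV) and sorted TFH cells from the spleen on day 8, to ask what the kinase complex mTORC2, of which Rictor is a required subunit, does in these cells. The Rictor-null group (Rictor-/-) carried loxP-flanked Rictor alleles and a Cd4-Cre transgene (Rictor fl/fl Cd4-Cre), and the WT group was made of Rictor fl/fl littermates without Cre, so that both groups carried the flanked alleles and both were infected. Mice were between 6 and 10 weeks old when infected. The study used C57BL/6J mice as its wild-type strain, and its methods do not state the background of the Rictor lines. Cd4-Cre acts in the thymus at the stage where T cells express CD4, so that the CD8 lineage loses Rictor too and the deletion precedes the infection. There were 2 arrays per group, each from pooled mice. Pool sizes are uncertain, since the description in the database states a minimum of 5 mice for a sample and the study's legend gives smaller groups.

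Array medians lay between 19.98 and 20.4, and the 4 arrays correlated at 0.9981 and 0.998 within the groups and at 0.9934 to 0.9944 between them. The brightest Rictor probe set read 267 and 279 on the Rictor-/- arrays and 334 and 303 on the WT arrays (log2 fold change −0.21, SE 0.06, adjusted p = 0.0366 in limma), and the other 4 Rictor probe sets gave values from −0.03 to 0.11. The Rictor call was lost without Rictor-/- replicate 1 (adjusted p = 0.160), WT replicate 1 (0.297) or WT replicate 2 (0.0823), and in 8 of 15 alternatives in all, among them the mean of its probe sets (log2 fold change −0.01, adjusted p = 0.900) and adjustment over all probe sets (adjusted p = 0.0868). Whether any of the probe sets lies in the deleted exons is not known here, so that they check the labels only in part. The study itself detected no Rictor mRNA when it measured TFH cells of Rictor-/- mice. For CD4+ T cells of these mice, it reports no rise of mTORC2 signalling after stimulation. The summed intensity of 6 TFH markers was 6866 to 7296 in Rictor-/- cells and 8013 to 8390 in WT cells, and 5 of the 6 (Cd4, Cd3e, Cxcr5, Bcl6 and Pdcd1) fell in limma's test while Icos did not pass it. Markers of other cells were read in the same way. Those of B cells summed to 71.0 to 78.1 in Rictor-/- cells and 57.1 to 59.4 in WT cells, with Ms4a1, Cd79a, Pax5 and Ebf1 below the median of all probe sets, and 2 of 5 rose. Myeloid markers summed to 351 to 385 against 269 to 289, and 2 of 6 rose (Lyz2 and Itgam). NK and CD8 T cell markers summed to 158 to 173 against 119 to 126, and 1 of 3 rose (Cd8b1). Plasmacytoid dendritic cell markers summed to 222 to 230 against 268 to 271, and 1 of 3 fell (Bst2). Regulatory T cell markers summed to 1045 to 1077 against 1368 to 1396, where Ikzf2 fell, Il2ra rose and Foxp3 stayed below the median of all probe sets. The part of these other cells in the results that follow was not tested.

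Protein tyrosine phosphatases remove the phosphates that tyrosine kinases add, and in T cells they set the threshold of the antigen receptor (TCR): CD45 primes Src-family kinases by clearing their inhibitory tyrosine, while others switch the same kinases, or the JAK kinases of cytokine receptors, off. The MAP kinase phosphatases remove both phosphates of the activation loop of ERK, JNK or p38, and several of them are themselves induced by the pathway they shut down. TFH cells receive TCR, co-stimulatory and cytokine signals from B cells in the follicle, and all of these signals pass through substrates of these enzymes.

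In Rictor-/- TFH cells 12 of the 59 phosphatase genes fell, 6 rose and 41 did not pass the test (limma on log2(intensity + 16), Benjamini-Hochberg adjustment over all 18193 genes, threshold 0.05). That was 20.3% of the members lower, where 7.18% of all genes were lower, and 10.2% higher, where 12.5% of all genes were higher. The shifts were small by the brightest probe set of each gene. No member reached 1.5-fold in either direction, a size that 1.62% of all genes reached, and the largest ratio of mean intensities was 1.441, that of Ptpn4. Other probe sets of Ptpn4, Ptprk and Ptprc, given below, differed more on the linear scale. The arrays of the groups did not overlap for 19 members that were lower (32.2% of members, 24.9% of all genes) and 17 that were higher (28.8% of members, 30.6% of all genes), and they overlapped for 23. The median log2 fold change of the members was −0.03, and that of all genes 0.01. Of the 59 genes, 17 were dimmer than the median of all probe sets (20.2), and 1 of these 17 passed the test. Of all 18193 genes, 7497 were dimmer, so that the shares above were not compared at matched intensity. Without WT replicate 1 the counts were 8 lower and 3 higher, and without WT replicate 2 they were 7 and 3. Whether fewer cells carried a transcript or each cell carried less of it cannot be told apart in bulk RNA.

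The calls were also counted by class, beside 7.18% of all genes lower and 12.5% higher. Differences between classes were not tested. Of the 10 MAP kinase phosphatases 5 fell (50%) and 1 rose (10%), with a median log2 fold change of −0.18. Of the 14 atypical dual-specificity phosphatases 3 rose (21.4%) and none fell, with a median of 0.11. Among the 16 non-receptor enzymes 5 fell (31.2%) and 2 rose (12.5%). Among the 18 receptor-type enzymes 2 fell (11.1%) and none rose. Both of these classes had a median of −0.03. The classes are small, and the atypical and receptor-type shares rest on 3 and 2 calls.

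**Figure D1:**
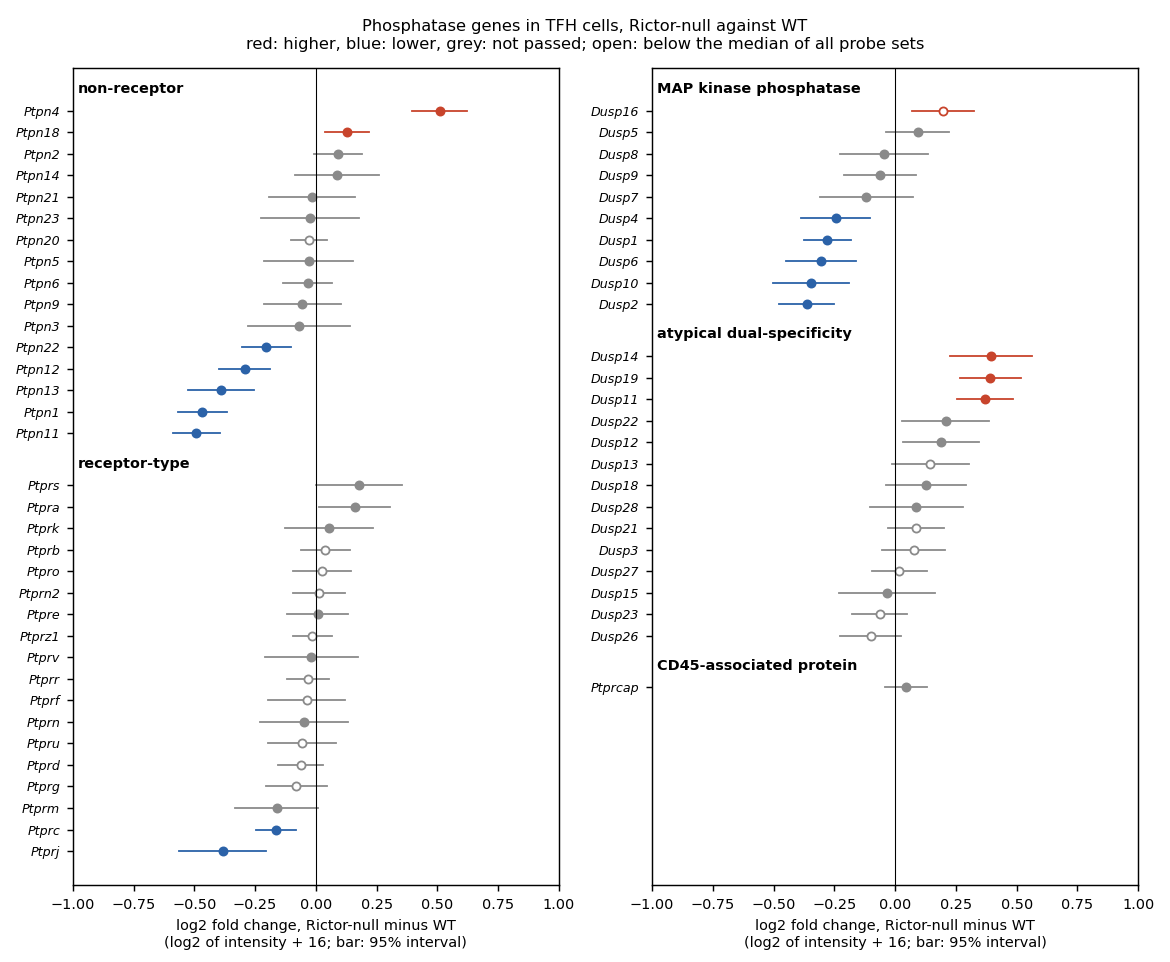
Log2 fold change of each of the 59 genes (x axis, Rictor-/- minus WT on the log2(intensity + 16) scale; points are estimates, bars are 95% intervals from limma), grouped by class and coloured by the test, with open points for genes dimmer than the median of all probe sets. Ptpn11 and Ptpn1 lie farthest to the left and Ptpn4 farthest to the right, and most receptor-type genes lie near 0.

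Promoter sequences of 5 members whose level changed are shown, with the matches to motifs of signal-responsive transcription factors marked. They are of 4 genes that fell (Dusp1, Dusp2, Ptpn1 and Ptpn11) and of the gene that rose most (Ptpn4). They were picked by hand and are not typical of the 10 genes that fell and have a promoter. No other of those 10 held a full cAMP response element or an E-box, and only Ptpn13 among the others held an EGR site. Each is the 250 bases before the annotated start in RefSeq (GRCm38.p6), written 5′ to 3′ on the gene's own strand, where capitals mark matches on either strand to the cAMP response element TGACGTCA or its core TGACG, the EGR site GCGNGGGCG or the E-box CACGTG. Dusp1 lies on the minus strand at chr17:26508473-26508722, Dusp2 on the plus strand at chr2:127335909-127336158, Ptpn1 on the plus strand at chr2:167932077-167932326, Ptpn11 on the minus strand at chr5:121191398-121191647 and Ptpn4 on the minus strand at chr1:119837072-119837321.
Dusp1: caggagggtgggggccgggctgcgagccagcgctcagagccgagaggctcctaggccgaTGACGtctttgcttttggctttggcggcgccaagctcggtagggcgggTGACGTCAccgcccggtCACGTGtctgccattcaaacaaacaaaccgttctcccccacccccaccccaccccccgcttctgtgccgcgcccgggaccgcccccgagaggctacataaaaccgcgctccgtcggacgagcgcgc
Dusp2: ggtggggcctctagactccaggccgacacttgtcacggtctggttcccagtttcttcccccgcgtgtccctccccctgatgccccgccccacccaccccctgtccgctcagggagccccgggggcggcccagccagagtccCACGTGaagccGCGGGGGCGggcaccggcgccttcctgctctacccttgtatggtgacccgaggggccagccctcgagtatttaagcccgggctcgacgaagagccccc
Ptpn1: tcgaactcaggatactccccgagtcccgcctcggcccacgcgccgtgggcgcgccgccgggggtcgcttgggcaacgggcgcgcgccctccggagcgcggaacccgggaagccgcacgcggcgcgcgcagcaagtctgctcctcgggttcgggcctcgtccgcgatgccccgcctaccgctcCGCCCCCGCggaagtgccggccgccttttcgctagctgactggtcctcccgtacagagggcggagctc
Ptpn11: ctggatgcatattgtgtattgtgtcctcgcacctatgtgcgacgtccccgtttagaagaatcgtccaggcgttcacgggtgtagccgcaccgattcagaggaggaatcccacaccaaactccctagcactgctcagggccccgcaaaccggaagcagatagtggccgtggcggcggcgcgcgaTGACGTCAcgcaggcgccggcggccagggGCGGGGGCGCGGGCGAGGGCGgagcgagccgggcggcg
Ptpn4: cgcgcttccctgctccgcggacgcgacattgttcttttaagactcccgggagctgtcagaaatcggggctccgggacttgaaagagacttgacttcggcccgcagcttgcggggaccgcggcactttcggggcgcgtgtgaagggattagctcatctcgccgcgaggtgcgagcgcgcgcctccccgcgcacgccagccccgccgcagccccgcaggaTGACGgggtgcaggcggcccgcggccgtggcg

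A promoter was found for 47 of the 59 members, and 12 had none in the table. The full cAMP response element lay in 4 of the 47, in Dusp1 at bases 143 to 136 before the start and in Ptpn11 at bases 67 to 60 among those that fell, and in Dusp8 and Ptpru among those that did not pass. Some genes have more than 1 promoter in the table, and a gene was counted once if any of its promoters held the motif, both for the members and for all 27025 genes there. Counted so, the full element lay in 1.77% of all genes (1.55% of all 32851 promoters). The EGR site lay in 12 of the 47 and in 5.33% of all genes (12 of the members' 63 promoters and 4.7% of all promoters). Of the 10 genes that fell and have a promoter, 4 held it (Dusp2, Ptpn1, Ptpn11 and Ptpn13), of the 5 that rose 1 held it (Dusp16), and of the 32 that did not pass 7 held it. In Ptpn11 there were 3 overlapping matches between bases 38 and 18 before the start. The E-box was present in 3 of the 47 (Dusp1, Dusp2 and Ptprs) and in 6.86% of all genes (6.02% of all promoters). The core TGACG, which each full element holds on both strands, occurred in 18 of the 47 and in 19.8% of all genes (17.8% of all promoters). It lay in 2 of the 10 that fell, 3 of the 5 that rose and 13 of the 32 that did not pass. In Ptpn4 the core was the only one of these motifs. The AP-1 site TGACTCA (2 of the 47, 5.16% of all genes, 4.46% of all promoters), the FOXO site TGTTTAC (2 of the 47, 3.54% of all genes, 3.17% of all promoters) and the CArG box (2 of the 47, 1.62% of all genes, 1.47% of all promoters) were in no promoter of a gene that passed the test. Promoters of the members had a median GC content of 60.4% over 63 promoters, against 52.4% of all promoters, and the GC-rich EGR site was not compared at matched GC.

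Among non-receptor phosphatases that fell, Ptpn11 and Ptpn1 changed most. Ptpn11 encodes SHP-2, which binds phosphorylated receptors and adaptors, PD-1 among them, and promotes ERK signalling below many receptors. It read 1325 and 1303 on the Rictor-/- arrays and 1816 and 1892 on the WT arrays, so that both Rictor-/- arrays were far below both WT arrays (log2 fold change −0.49, SE 0.04, adjusted p = 1.12e-05 in limma). Ptpn1 encodes PTP1B, which dephosphorylates the insulin receptor and JAK2, and it read 893 and 884 in Rictor-/- cells against 1265 and 1206 in WT cells (−0.47, SE 0.05, adjusted p = 2.59e-05). Both promoters, shown above, hold an EGR site, and that of Ptpn11 also holds a full cAMP response element. Both calls held with any 1 array left out. Averaged over its probe sets, Ptpn11 gave −0.28 (adjusted p = 0.0173).

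Ptpn13, a large phosphatase with FERM and PDZ domains, read 209 and 218 against 292 and 277, with the groups apart (−0.39, SE 0.06, adjusted p = 0.000653). Ptpn12 encodes PTP-PEST, which acts on adhesion and cytoskeletal proteins, and it read 596 and 582 against 728 and 722 (−0.29, SE 0.05, adjusted p = 0.000909). In both genes the replicates lay closer to each other than the groups did. Ptpn22 encodes PEP, which restrains TCR signalling by dephosphorylating Src-family kinases and Zap70. It read 1249 and 1326 in Rictor-/- cells and 1496 and 1474 in WT cells (−0.20, SE 0.05, adjusted p = 0.00722), and the call was lost without WT replicate 1 (adjusted p = 0.118) and without WT replicate 2 (adjusted p = 0.0983).

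Ptpn4, a FERM and PDZ domain phosphatase that has been tied to TCR signalling, rose most of the 59 genes. It read 570 and 585 on the Rictor-/- arrays and 405 and 396 on the WT arrays (0.51, SE 0.05, adjusted p = 2.97e-05), and the call held with any 1 array left out. Ptpn18, of the same PEST group as Ptpn12 and Ptpn22, read 2315 and 2271 against 2064 and 2127 (0.13, SE 0.04, adjusted p = 0.0459). The groups of Ptpn18 were apart but close, and no fit with 1 array less kept the call (adjusted p from 0.0593 to 0.253).

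Other non-receptor members gave no call. Ptpn6 encodes SHP-1, the inhibitory relative of SHP-2, and read 888 and 886 in Rictor-/- cells and 926 and 891 in WT cells (−0.03, 95% interval −0.14 to 0.07, adjusted p = 0.713 in limma). Ptpn2 encodes TC-PTP, which dephosphorylates JAK and STAT proteins and is the closest relative of PTP1B. It read 1053 and 1040 against 987 and 975, a little higher on both Rictor-/- arrays (0.09, 95% interval −0.01 to 0.19, adjusted p = 0.197). The remaining 7 (Ptpn3, Ptpn5, Ptpn9, Ptpn14, Ptpn20, Ptpn21 and Ptpn23) had log2 fold changes from −0.07 to 0.09.

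**Figure D2:**
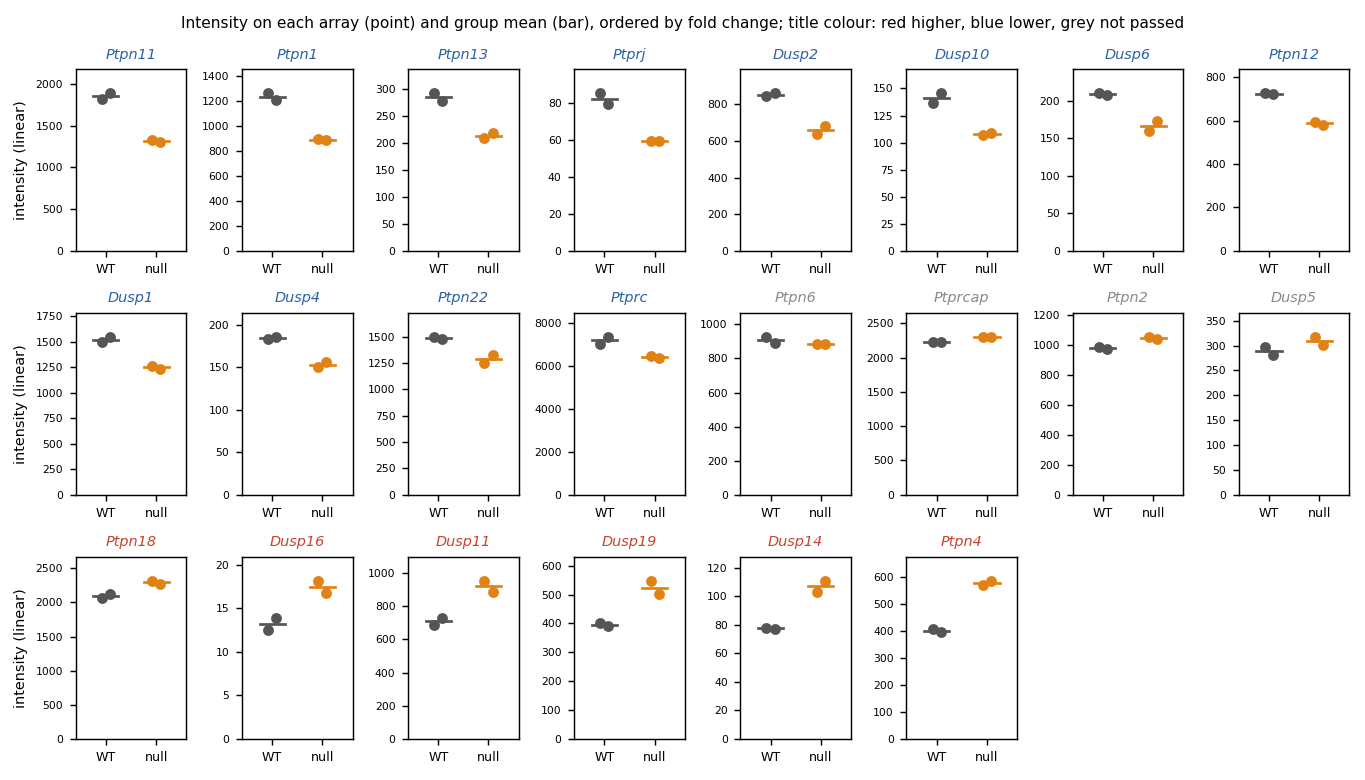
Intensity of the named members on each of the 4 arrays (linear y axis from 0; points are arrays, bars are group means of 2 arrays), ordered by fold change from the largest fall to the largest rise. The WT and Rictor-/- arrays of Ptpn11 (1816 and 1892 against 1325 and 1303) and Ptpn4 (405 and 396 against 570 and 585) lie far apart, and those of Ptpn6 lie close together.

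Of the receptor-type phosphatases, Ptprc and Ptprj fell. Ptprc encodes CD45, the abundant leukocyte phosphatase that primes TCR signalling. It read 6457 and 6337 in Rictor-/- cells and 7026 and 7333 in WT cells, a small shift between groups that did not overlap (−0.17, SE 0.04, adjusted p = 0.00754), and the call was lost without WT replicate 2 (adjusted p = 0.126). Ptprj encodes CD148, which in lymphocytes shares with CD45 the inhibitory tyrosine of Src-family kinases as a substrate. It read 59.1 and 59.4 against 85.3 and 79.1 (−0.38, SE 0.08, adjusted p = 0.00502), with the call lost without WT replicate 1 (adjusted p = 0.0810). Ptprcap, the CD45-associated protein, read 2299 and 2298 against 2225 and 2231 (0.04, 95% interval −0.04 to 0.13, adjusted p = 0.530).

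The other 16 receptor-type genes did not pass, and 9 of the 18 were dimmer than the median of all probe sets. Ptpra, which also activates Src-family kinases, read 474 and 547 in Rictor-/- cells and 466 and 442 in WT cells (0.16, 95% interval 0.01 to 0.31, adjusted p = 0.124). Ptpre, its closest relative, read 358 and 342 against 339 and 357, and its groups overlapped (0.01, 95% interval −0.12 to 0.13, adjusted p = 0.956). Ptprs, known from axons and plasmacytoid dendritic cells, read 137 and 140 against 131 and 111 (0.18, adjusted p = 0.170). Both Rictor-/- arrays of Ptprs were above both WT arrays, while WT replicate 1 lay close to them.

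Of the MAP kinase phosphatases the 5 that fell took in nuclear and cytosolic enzymes. Dusp2 encodes PAC1, a nuclear phosphatase that activated lymphocytes induce. It read 637 and 684 in Rictor-/- cells and 846 and 863 in WT cells (−0.36, SE 0.05, adjusted p = 0.000278). Dusp1 encodes MKP-1, an immediate-early nuclear phosphatase of p38, JNK and ERK, and read 1262 and 1235 against 1492 and 1545 (−0.28, SE 0.04, adjusted p = 0.000666). Both calls held with any 1 array left out, and the promoters of both genes, shown above, hold an E-box, in Dusp1 close to a full cAMP response element and in Dusp2 close to an EGR site.

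Dusp10 encodes MKP-5, which acts on JNK and p38, and read 107 and 109 in Rictor-/- cells and 137 and 146 in WT cells (−0.34, SE 0.07, adjusted p = 0.00427). Its call was lost without WT replicate 2 (adjusted p = 0.0889). Dusp6 encodes MKP-3, a cytosolic phosphatase of ERK that serves as its feedback brake, and read 160 and 172 against 210 and 208 (−0.30, SE 0.07, adjusted p = 0.00550). It lost the call without either WT array (adjusted p = 0.0920 without replicate 1, 0.0833 without replicate 2). Dusp4 encodes MKP-2, a nuclear phosphatase of ERK and JNK, and read 150 and 157 against 183 and 186 (−0.24, SE 0.07, adjusted p = 0.0187). Here the call was lost without Rictor-/- replicate 1 (adjusted p = 0.0928), WT replicate 1 (0.117) or WT replicate 2 (0.144). The groups did not overlap for any of these 3 genes.

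Dusp5, the nuclear ERK phosphatase, did not fall. It read 317 and 301 in Rictor-/- cells and 297 and 281 in WT cells, with both Rictor-/- arrays above both WT arrays (0.09, 95% interval −0.04 to 0.22, adjusted p = 0.355). Dusp16 encodes MKP-7, a phosphatase of JNK. It rose from 12.5 and 13.9 to 18.1 and 16.8 (0.20, SE 0.06, adjusted p = 0.0321), but all of these readings are below the median of all probe sets and the call was lost with any 1 array left out (adjusted p from 0.0685 to 0.199). Dusp7, Dusp8 and Dusp9 gave log2 fold changes of −0.12, −0.05 and −0.06, with intervals that included 0.

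The atypical dual-specificity phosphatases that rose were Dusp14, Dusp19 and Dusp11. Dusp14 encodes MKP-6, which restrains TCR signalling through the kinase adaptor TAB1. It read 103 and 111 in Rictor-/- cells and 77.8 and 77.4 in WT cells (0.39, SE 0.08, adjusted p = 0.00292), and the call was lost without WT replicate 1 (adjusted p = 0.0567) or WT replicate 2 (0.0607). Dusp19, which binds kinases of the JNK pathway, read 548 and 501 against 400 and 391 (0.39, SE 0.06, adjusted p = 0.000382). Dusp11 encodes an enzyme that removes phosphates from the 5′ end of RNA rather than from protein, and read 953 and 888 against 688 and 730 (0.37, SE 0.05, adjusted p = 0.000337). In all 3 genes both Rictor-/- arrays were above both WT arrays, and the calls of Dusp19 and Dusp11 held with any 1 array left out.

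Of the other 11 atypical genes 6 were dimmer than the median of all probe sets. Dusp22, an enzyme that acts on Src-family kinases in T cells, read 57.3 and 57.9 against 46.9 and 48.6 (0.21, 95% interval 0.03 to 0.39, adjusted p = 0.105). Dusp12, a zinc-binding phosphatase with a role in ribosome assembly, read 127 and 125 against 112 and 106 (0.19, 95% interval 0.03 to 0.35, adjusted p = 0.0930). In both genes the Rictor-/- arrays were higher without the change passing the adjusted threshold, and the other 9 lay between −0.10 and 0.15.

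Probe sets of the same gene were compared because they read different parts of a transcript. There were 37 members with more than 1 probe set, and none had probe sets past the threshold in opposite directions. With adjustment over all 45037 probe sets, 16 of the 59 brightest and 8 of the 70 other probe sets passed. Among 17 members with more than 1 probe set at or above the median of all, fold changes within a gene spread over a median of 0.14 and at most 0.44 on the log2 scale.

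The second probe sets of Ptpn1 (511 and 560 in Rictor-/- cells, 721 and 694 in WT cells, −0.39, adjusted p = 0.00240 over all probe sets) and Dusp19 (234 and 227 against 154 and 164, 0.50, adjusted p = 0.00128) passed in the direction of the brightest, and so did 1 of 3 further probe sets of Ptpn12 (−0.31, adjusted p = 0.0223). The second probe set of Ptpn4, dimmer than the median of all, read 21.8 and 22.6 in Rictor-/- cells and 11.6 and 11.9 in WT cells (0.46, adjusted p = 0.00131). For Ptprc a second probe set read 600 and 695 in Rictor-/- cells and 1074 and 885 in WT cells (−0.58, adjusted p = 0.00279), a larger difference than that of the brightest (−0.17). Ptprk, whose brightest probe set gave 0.05 and did not pass, had another that read 45.4 and 37.9 against 23.7 and 25.9 (0.50, adjusted p = 0.00692). Ptprs had another that read 49.8 and 47.7 against 38.5 and 34.5 (0.30, adjusted p = 0.0485). In Dusp11 the second probe set read 741 and 767 against 729 and 738 and did not follow the brightest (0.04, adjusted p = 0.726), and in Ptpn11 the second read 240 and 199 against 239 and 311, with overlapping groups (−0.30, adjusted p = 0.153). A further Ptpn11 probe set, just above the median of all, read 21.3 and 20.9 against 23.9 and 21.8 (−0.07, adjusted p = 0.683).

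**Figure D3:**
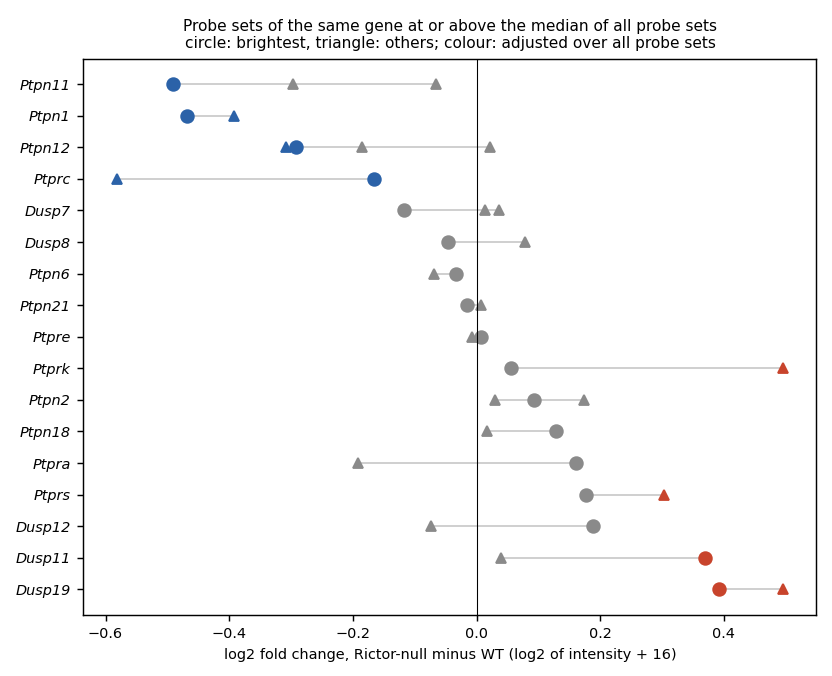
Log2 fold change (x axis, Rictor-/- minus WT) of each probe set at or above the median of all, for the 17 members with more than 1 of them; circles are the brightest probe set of a gene and triangles the others, coloured where the adjusted p over all probe sets was under 0.05. Ptprk, Ptpn11 and Ptprc have the widest spreads, and the probe sets of Ptpn1 and Dusp19 lie on the same side of 0.

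Genes of the pathways on which the phosphatases act were taken from lists that were written with earlier results of these data known. Of 24 measured TCR-proximal kinase and adaptor genes 11 fell (45.8%, where 7.18% of all genes fell) and 3 rose (12.5%, where 12.5% of all genes rose), with a median log2 fold change of −0.19. None of the 24 was dimmer than the median of all probe sets, whereas 7497 of all 18193 genes were. The shares were thus not compared at matched intensity. The same limit holds for the lists below, with 2 dim MAPK cascade, 6 dim ERK feedback and 2 dim JAK-STAT genes. The smallest p belonged to Pag1, a membrane adaptor that recruits the inhibitory kinase Csk (351 and 325 in Rictor-/- cells, 500 and 489 in WT cells, −0.53, adjusted p = 4.32e-05 in limma), followed by the Src-family kinase Fyn (−0.37, adjusted p = 7.92e-05), the ubiquitin ligase Cbl (−0.39, adjusted p = 0.000244) and the phospholipase Plcg1 (−0.36, adjusted p = 0.000284). Averaged over their probe sets, Pag1 (−0.20, adjusted p = 0.05002) and Plcg1 (−0.12, adjusted p = 0.200) lost their calls. Cd3e, Cd247 and Zap70 of the receptor complex fell too (−0.32, −0.23 and −0.33), whereas Cd3d and Cd3g gave 0.01 and 0.04 and did not pass. The 3 genes that rose were Tec, Nck1 and Themis. Tec read 161 and 133 in Rictor-/- cells and 93.3 and 101 in WT cells (0.52, adjusted p = 0.00105 in limma). Nck1 gave 0.28 (adjusted p = 0.0152) and Themis 0.26 (adjusted p = 0.00164). Without WT replicate 1 the list held 6 calls, and without WT replicate 2 it held 7.

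Of the 24 measured genes of the MAPK cascade 3 fell (12.5%), 2 rose (8.33%) and 19 did not pass, with a median of −0.05, so that few genes of this list were called and its shares were not far from those of all genes (7.18% and 12.5%). The scaffold Ksr1 (−0.35, adjusted p = 0.00292) and the p38 activator Map2k3 (−0.24, adjusted p = 0.00542) fell, while Map2k4, an activator of JNK (0.29, adjusted p = 0.00562), and Mapk8, which encodes JNK1 (0.23, adjusted p = 0.0430), rose. Averaged over their probe sets, Map2k4 (0.21, adjusted p = 0.0584) and Mapk8 (0.08, adjusted p = 0.408) lost their calls. All 5 calls were lost without WT replicate 1 and also without WT replicate 2. The ERK kinase Map2k1 read 389 and 379 against 381 and 389, with overlapping groups, and the p38 gene Mapk14 read 655 and 635 against 731 and 692 (−0.14, adjusted p = 0.0809).

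Of 26 ERK feedback and immediate-early genes 13 fell (50%, where 7.18% of all genes fell) and 1 rose (3.85%, where 12.5% of all genes rose). Their median was −0.21. Fos read 1194 and 1227 in Rictor-/- cells and 1951 and 1903 in WT cells (−0.66, adjusted p = 1.12e-06), Egr1 832 and 799 against 1331 and 1237 (−0.64, adjusted p = 4.62e-06), and Egr2 180 and 177 against 272 and 265 (−0.55, adjusted p = 5.07e-05). Ier3, an immediate-early gene tied to cell survival, was the 1 that rose, from 29.1 and 35.5 to 71.5 and 70.3 (0.85, adjusted p = 4.18e-05). Without either WT array the list held 9 calls. Among the feedback inhibitors of ERK, Spry1 fell (−0.30, adjusted p = 0.0197). Spred2 (−0.17) and Spred1 (0.02, adjusted p = 0.914) did not pass, and Spry2, Spry4 and Spred3 were below the median of all probe sets. Egr1 and Fos, whose products bind the EGR and AP-1 sites searched above, had larger log2 differences than any phosphatase gene. Whether they have a part in the levels of the phosphatase genes was not tested.

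Cytokine JAK-STAT genes, on which Ptpn1, Ptpn2, Ptpn6 and Ptpn11 act, split in direction, with a median of −0.12. Of 24 measured, 10 were lower (41.7%, where 7.18% of all genes were) and 5 higher (20.8%, where 12.5% of all genes were). Socs2, a feedback inhibitor, read 103 and 117 in Rictor-/- cells and 52.5 and 48.6 in WT cells (0.92, adjusted p = 1.69e-05). The receptor genes Ifngr1 (0.66, adjusted p = 1.51e-05) and Il7r (0.53, adjusted p = 7.26e-06) also rose. Il6ra, the receptor chain for IL-6, fell (−0.60, adjusted p = 4.55e-05), as did Il6st, Il21r, Stat3 and Jak2 (−0.33, −0.34, −0.29 and −0.24). The list held 6 calls without either WT array, and 8 when all probe sets of a gene were averaged.

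**Figure D4:**
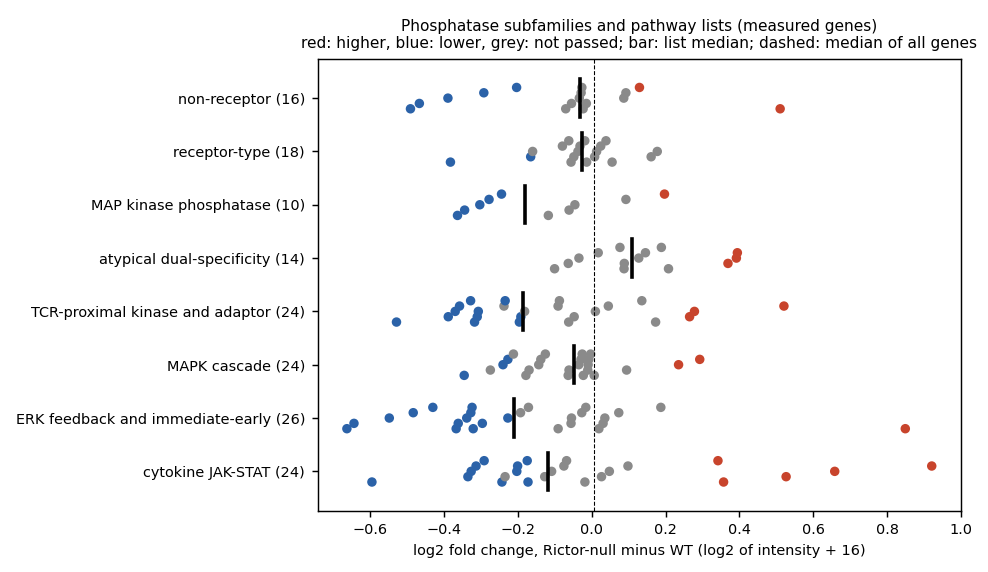
Log2 fold change (x axis, Rictor-/- minus WT) of every measured gene in the phosphatase classes and pathway lists (y axis, number of genes in brackets); points are genes coloured by limma's test, bars list medians and the dashed line the median of all genes (0.01). MAP kinase phosphatases (median −0.18), TCR-proximal genes (−0.19) and ERK feedback genes (−0.21) lie to the left, and atypical dual-specificity phosphatases (0.11) to the right.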

How the data were processed

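RNA of sorted TFH cells was hybridised on 4 Affymetrix mouse arrays, 2 Rictor-/- and 2 WT, grouped by their labels. The table deposited by the authors holds linear intensities that had already been scaled between arrays. MAS5 and RMA stand in the submitters' processing notes, and neither has a stated version or task there. Background correction and scaling therefore cannot be told from these sources, and MAS5 and RMA differ in how they treat dim probe sets. Control probe sets were not used here. Depth does not apply to arrays, and their number (2 a group) limits the precision. The labels call the samples biological replicates. The p-values of limma rest on the spread between these pools, moderated by that of other genes of similar intensity. They therefore do not measure the spread of each gene alone.

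Of 45037 probe sets 34945 have 1 platform symbol, 932 several and 9160 none, and only those with 1 named a gene. Symbols of 59 of 59 members were found by Entrez number in RefSeq (GRCm38.p6), and 0 changed. Values became log2(intensity + 16), which understates changes of dim genes. The gene's probe set with the highest mean log2 value was tested with limma 3.58.1 in R 4.3.3 (lmFit, eBayes with trend, two-sided, Benjamini-Hochberg over 18193 genes), after a check on simulated data. SE and 95% intervals come from that fit. Named were up to 12 rises and 12 falls among members that passed, members known from T cell signalling, members with conflicting probe sets, and up to 4 genes per pathway list with the smallest p. Other genes (Ptpra, Ptpre, Ptprk, Ptpro, Ptprs, Dusp12, Dusp22 and further pathway genes) were chosen after their values were seen. The members and lists were chosen with earlier results of these data known.

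Alternatives were a pseudocount of 1, quantile normalization, median centring, averaging a gene's probe sets and dropping dim ones. Further ones were adjustment over all probe sets, eBayes without trend, a replicate block and leaving out each array. The one-tailed t-test named in the methods was also run, with and without adjustment, with the tail in each gene's observed direction. Choosing the brightest probe set by the linear mean was added after seeing the data. Motifs were searched on both strands of the 250 bases before each RefSeq start.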

Additional observations from a re-analysis of the deposited data

How the results depend on the processing

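With 12 members lower and 6 higher as reported, median centring and quantile normalization gave 12 and 5, a pseudocount of 1 and leaving out dim probe sets 12 and 6, the mean of all probe sets 9 and 5, adjustment over all probe sets 12 and 4, and eBayes without trend 11 and 7. Dusp16 was left out with the dim probe sets, so that the 6 higher members there were not the same 6 genes. The one-tailed t-test named in the methods was run with the tail in each gene's observed direction, which is less strict than a two-sided test. Without adjustment it gave 12 higher and 13 lower members, and 3141 higher and 2230 lower genes of all. On the pathway lists it called 16 TCR-proximal, 9 MAPK cascade, 14 ERK feedback and 15 JAK-STAT genes. After Benjamini-Hochberg adjustment it gave 0 members higher, 0 lower and 0 genes on each of the 4 pathway lists, and 3 higher and 3 lower genes of all, where limma gave 2281 and 1306. Leaving out 1 array gave 3 to 5 higher members, 7 to 12 lower members, 6 to 15 TCR-proximal genes (14 as reported), 0 to 5 MAPK cascade genes (5), 9 to 13 ERK feedback genes (14) and 6 to 13 JAK-STAT genes (15). The lowest of these counts came without WT replicate 1 or WT replicate 2, which left 1004 and 931 higher and 456 and 497 lower genes of all, and in such fits the lone array was assumed to vary like the other group. Adjustment over all probe sets left 3 MAPK cascade genes, and the mean of all probe sets left 8 JAK-STAT genes and 842 lower genes of all. Same-numbered arrays did not deviate together (r = -0.0321 over genes), so that the numbers were not taken to pair the samples; a replicate block gave 12 lower and 6 higher members, 14, 5, 14 and 15 list genes in the same order, and changed no named member's call, while all genes gave 2360 higher and 1375 lower.

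No named gene that passed turned its sign under any alternative run. The one-tailed test after adjustment lost all 18 named members that passed. Dusp1, Dusp2, Dusp11, Dusp19, Ptpn1, Ptpn4, Ptpn11 and Ptpn12 lost no call in any other alternative, while Ptpn18 lost it in 10 of 15 alternatives and Dusp16 in 7 of 14. The mean of all probe sets lost Dusp10, Dusp16, Ptpn13, Ptpn18 and Ptprj, and of the named pathway genes Pag1, Plcg1, Map2k4 and Mapk8, and Ptprc was lost in eBayes without trend. The causes were not tested.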
